A study of Homo sapiens with 12 samples.

Results

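The genes described here lie between 68.5 and 72.5 Mb on human chromosome 11 (build GRCh38), in the 11q13 region that holds CTTN, ANO1, FADD and PPFIA1. A gene was taken when the first chromosome listed for it was 11, its smallest exon start was at or after the first position and its largest exon end was at or before the second. The rule left 3 genes of this stretch out and used no measured value. It gave 87 of the 38516 genes in the deposited table. By GENCODE release 29, 36 of the 87 are protein-coding, 16 antisense and 11 lincRNA genes, and the rest are pseudogenes, miRNAs and other short classes.

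Gain of 11q13 DNA is a frequent event in squamous carcinomas of the esophagus and of the head and neck, and the gained stretch often includes several neighbouring genes at once. CTTN encodes cortactin, which binds actin filaments and helps the Arp2/3 complex to branch them at the cell edge. ANO1 encodes a calcium-activated chloride channel, FADD the adaptor that couples death receptors to caspases, and PPFIA1 liprin-alpha-1, a scaffold protein found at cell adhesions. DNA copy number was not analysed here, so every value below is an RNA level.

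RNA was sequenced in bulk from 12 libraries of 2 established human lines of esophageal squamous cell carcinoma (ESCC), KYSE150 and KYSE510. Each line was represented by 3 control libraries and 3 libraries in which HCP5, a long non-coding RNA gene, was silenced, and all cells were kept in RPMI-1640 with fetal bovine serum. The library titles begin with sh, but the labels name neither the silencing and control reagents nor a number of clones, and nothing in them says that replicates were separate cultures. The p-values therefore measure the spread between these libraries, which may be technical.

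Libraries held 20035025 to 28202422 reads assigned to genes, and the 3 silenced libraries of KYSE150 held more reads than the 3 controls. HCP5 itself was at 0.779, 0.745 and 0.786 RPKM (a read density, corrected for the length of a gene's exons and for library depth) in KYSE150 controls and at 0.315, 0.418 and 0.579 in silenced libraries. In KYSE510 it was at 0.914, 1.85 and 1.40 in controls and at 0.505, 0.951 and 0.948 in silenced libraries. Neither difference passed limma's test over all genes (adjusted p = 0.267 and 0.646), nor did it with same-numbered libraries paired (adjusted p = 0.0556 and 0.134). Of 10 squamous markers, 9 reached 1 RPKM in every KYSE150 library and all 10 in every KYSE510 library, whereas 0 of 6 fibroblast and 0 of 3 endothelial markers did. The exception in KYSE150 was SOX2, with group means of 0.160 and 0.0916 RPKM. Of 5 immune markers only CD68 reached that level, and PTPRC and CD3E stayed at or below 0.00566 and 0.170 RPKM in every library.

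The region took a larger share of all reads in KYSE510, mostly through CTTN. Its 87 genes took 0.315% to 0.347% of the reads of each KYSE150 library and 0.690% to 0.807% of each KYSE510 library. CTTN alone took 0.0727% to 0.0813% in KYSE150 and 0.379% to 0.477% in KYSE510. Without CTTN the other members took 0.234% to 0.271% and 0.303% to 0.330%. Ranked by RPKM among all genes, CTTN stood between places 375 and 460 in KYSE150 libraries and between 56 and 78 in KYSE510 libraries. In bulk RNA a difference in RNA per cell and a difference in the share of cells that make it cannot be told apart.

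Many members were hardly expressed. Tests used log2(RPKM + 0.5) and genes with at least 0.5 RPKM in at least 3 libraries, which 39 of the 87 members passed and 48 did not. Of the 48, 33 had fewer than 3 reads in every library, and FOLR2 and ENPP7P8 had none in any. Among the best known members, GAL, the galanin peptide precursor, had at most 3 reads in a library and FGF19, a fibroblast growth factor ligand, was above 0 in 2 libraries, both of KYSE510. FOLR1, a folate receptor, averaged 0.0385 RPKM in KYSE150 controls and 0.309 RPKM in KYSE510 controls and was not tested. The tested set is thus a set that passed through expression in at least 3 libraries, and its counts do not stand for all 87.

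Between the control libraries of the lines, 33 of the 39 tested members differed by limma (two-sided, Benjamini-Hochberg adjusted p under 0.05 over all 17823 genes tested). Of these, 18 were higher in KYSE510 and 15 were lower, and in all 33 the 3 libraries of a line did not overlap those of the other, as in 64% of all genes tested. The 18 include MIR6754, a row of 66 bases with 7 reads in the KYSE510 controls together and 1 in the KYSE150 controls. Its ratio per assigned read was 5.76, with an exact 95% interval of 0.740 to 260 for counting error only. The lines differed widely elsewhere: limma called 62% of all genes tested, 28.3% higher and 33.7% lower in KYSE510. The share of members called was 84.6%. The median log2 difference was 0.08 over the members and -0.07 over all genes tested. Leaving out 1 library at a time gave 29 to 33 called members.

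**Figure D1:**
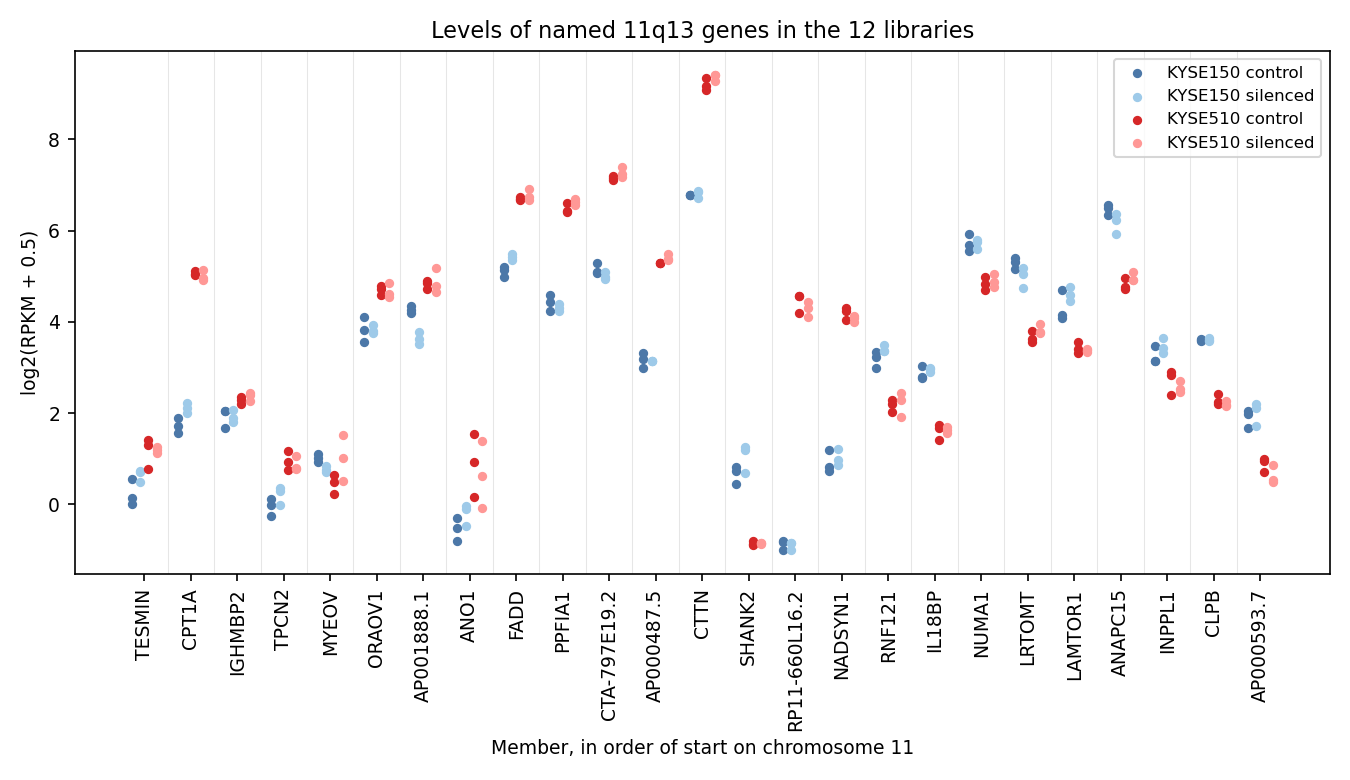
Levels of 25 named members that passed the expression filter, in order of position on chromosome 11, as log2(RPKM + 0.5) on the vertical axis; each point is 1 library and colours give the line and treatment. KYSE510 points lie above KYSE150 points from FADD to CTTN and below them from RNF121 on, and control and silenced points of a line lie close together for most genes.

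By group mean, CTTN was the most strongly expressed member in both lines. In KYSE150 control replicate 2, RP11-849H4.4 stood above it, at 115 against 110 RPKM. That antisense row shares 65.2% of its exon bases with NUMA1. The CTTN level was 109, 110 and 109 RPKM in KYSE150 controls and 652, 545 and 574 RPKM in KYSE510 controls. The lowest KYSE510 library thus stood far above the highest KYSE150 library. The means were 109 ± 0.509 and 590 ± 55.5 RPKM (SD, n = 3 each), a ratio of 5.40. On the log2(RPKM + 0.5) scale CTTN differed by 2.42 ± 0.08 (SE; adjusted p = 6.9e-10 by limma). Leaving out each library in turn moved it between 2.35 and 2.48.

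PPFIA1, the protein-coding member just before CTTN, was also higher in KYSE510. It was at 21.1, 23.5 and 18.3 RPKM in KYSE150 controls and at 96.4, 85.8 and 85.2 in KYSE510 controls, without overlap. The log2 difference was 2.07 ± 0.09 (SE), with an adjusted p of 8e-09 by limma. FADD, the death-receptor adaptor, stood at 34.8, 31.2 and 36.5 RPKM in KYSE150 and 106, 102 and 103 RPKM in KYSE510, a ratio of 3.03. Its log2 difference was 1.59 ± 0.08 (SE), with an adjusted p of 2.23e-08 by limma.

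ANO1, the chloride channel gene, was low in both lines and varied widely between replicates. Its KYSE150 controls were at 0.199, 0.0728 and 0.315 RPKM, and its KYSE510 controls at 1.41, 0.618 and 2.41 RPKM. The KYSE510 values spanned a wider range than the gap to the KYSE150 values, but the groups did not overlap. The log2 difference was 1.42 ± 0.38 (SE), with an adjusted p of 0.00694 by limma. Pooled over the 3 controls of a line, 76 reads in KYSE150 and 698 in KYSE510 gave a ratio per assigned read of 7.56 (exact 95% interval 5.96 to 9.71, for counting error only). In each of the 4 groups replicate 2 had the lowest ANO1 level of its group.

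Several antisense rows in this stretch were higher in KYSE510 too, as were the genes they overlap. CTA-797E19.2 and AP000487.5 lie opposite PPFIA1 and were higher in KYSE510 controls by 2.003 ± 0.08 and 2.13 ± 0.08 on the log2 scale (SE). RP11-805J14.5 lies entirely within FADD exons on the other strand and differed by 1.44 ± 0.08, and ANO1-AS1 lies entirely within ANO1 exons and differed by 1.47 ± 0.47. The ANO1-AS1 difference lost its call without KYSE150 control replicate 2 (log2 1.10, adjusted p = 0.0711 by limma) or without KYSE510 control replicate 3 (log2 1.14, adjusted p = 0.0722). Of the exon bases of FADD, 54.9% are shared with RP11-805J14.5. The use of strand in counting is not given in the sources used here, so reads on shared bases cannot be told apart, and RP11-805J14.5 and ANO1-AS1, which hold no bases of their own, are not separate evidence. Of the exon bases of CTA-797E19.2, 38.4% are shared with PPFIA1, and of those of AP000487.5 12.3% are shared with PPFIA1 and 2.76% with CTTN, so most bases of both rows are theirs alone.

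The genes on the centromere side of the window were mostly higher in KYSE510 as well, over a wide range of sizes. CPT1A, which encodes the carnitine palmitoyltransferase that controls entry of long-chain fatty acids into mitochondria, was at 2.46, 2.80 and 3.24 RPKM in KYSE150 controls and 34.0, 32.0 and 32.8 in KYSE510 controls. This ratio of 11.6 was above that of CTTN, with a log2 difference of 3.33 ± 0.10 (SE; adjusted p = 2.51e-10 by limma). TPCN2, an endolysosomal cation channel, differed by 1.003 ± 0.15 and TESMIN, a testis-expressed gene, by 0.94 ± 0.18. ORAOV1 (LTO1), which shares 497 exon bases with a neighbour outside the set, was at 13.9 ± 2.71 RPKM in KYSE150 and 25.5 ± 1.81 RPKM in KYSE510 controls (SD, n = 3 each), a log2 difference of 0.87 ± 0.13 (SE).

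IGHMBP2, a helicase gene, differed by 0.36 ± 0.12 on the log2 scale with an adjusted p of 0.0194 by limma. The call was lost without KYSE150 control replicate 2 (0.23, adjusted p = 0.0733) or KYSE510 control replicate 1 (0.32, adjusted p = 0.0582). AP001888.1, a row of 42 exon bases that all lie within ORAOV1, differed by 0.56 ± 0.12 (adjusted p = 0.00234), a call that a count model on recovered reads, fitted but not kept, did not make.

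MYEOV, a gene first described in myeloma, went the other way at 1.52 ± 0.117 RPKM in KYSE150 and 0.881 ± 0.206 in KYSE510 controls (SD, n = 3 each). Its log2 difference of -0.56 ± 0.21 (SE) had an adjusted p of 0.0350 by limma and lost its call in 7 of 20 alternatives. These included leaving out KYSE510 control replicate 2 (-0.44, adjusted p = 0.125), KYSE150 control replicate 1 (-0.52, adjusted p = 0.0922), replicate 2 (-0.60, adjusted p = 0.0524) or replicate 3 (-0.55, adjusted p = 0.0683) and KYSE510 control replicate 3 (-0.58, adjusted p = 0.0647). The others were no expression filter (adjusted p = 0.0750) and centring of libraries on their median (adjusted p = 0.0528).

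SHANK2, a synaptic scaffold gene that starts 0.07 Mb beyond the CTTN start, was the clearest exception in the central stretch. It was at 1.17, 0.859 and 1.26 RPKM in KYSE150 controls and at 0.0737, 0.0362 and 0.0469 RPKM in KYSE510 controls. Of its reads, 1295 came from KYSE150 controls and 74 from KYSE510 controls, a ratio per assigned read of 0.0470 (exact 95% interval 0.0367 to 0.0595, for counting error only). The log2 difference of -1.52 ± 0.15 (SE; adjusted p = 5.99e-06 by limma) understates this because of the added 0.5.

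Farther out, NADSYN1 and the adjacent RP11-660L16.2 had, together with CPT1A, the largest rises in KYSE510 controls among the tested members. RP11-660L16.2 is an antisense gene by its GENCODE type. By mean RPKM in controls, SHANK2 had a wider gap than NADSYN1 and CPT1A, in the other direction. Its ratio of KYSE150 over KYSE510 was 21.0, against ratios of KYSE510 over KYSE150 of 12.8 for NADSYN1 and 11.6 for CPT1A. NADSYN1, which encodes the glutamine-dependent synthetase of the last step of NAD synthesis, was at 1.26, 1.17 and 1.77 RPKM in KYSE150 controls and 15.9, 18.47 and 19.2 in KYSE510 controls. Its log2 difference was 3.28 ± 0.13 (SE; adjusted p = 2.5e-09 by limma). RP11-660L16.2 had 2 reads in the 3 KYSE150 controls together and 1127 in the KYSE510 controls, a ratio per assigned read of 464 with an exact 95% interval of 128 to 3836. In KYSE510 it was at 17.8, 23.4 and 23.2 RPKM, about the level of NADSYN1. RP11-660L16.2 and NADSYN1 share no exon bases with each other or with another row.

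From FAM86C1 on, the direction turned. In order of gene start, 23 tested members come before FAM86C1, of which 18 were higher in KYSE510 controls, 2 lower (MYEOV and SHANK2) and 3 not called, with a median log2 difference of 1.42. The 16 from FAM86C1 to the end of the window had 0 higher, 13 lower and 3 not called, with a median of -0.87. This boundary was placed after the values were seen, so the split is a description without a test.

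**Figure D2:**
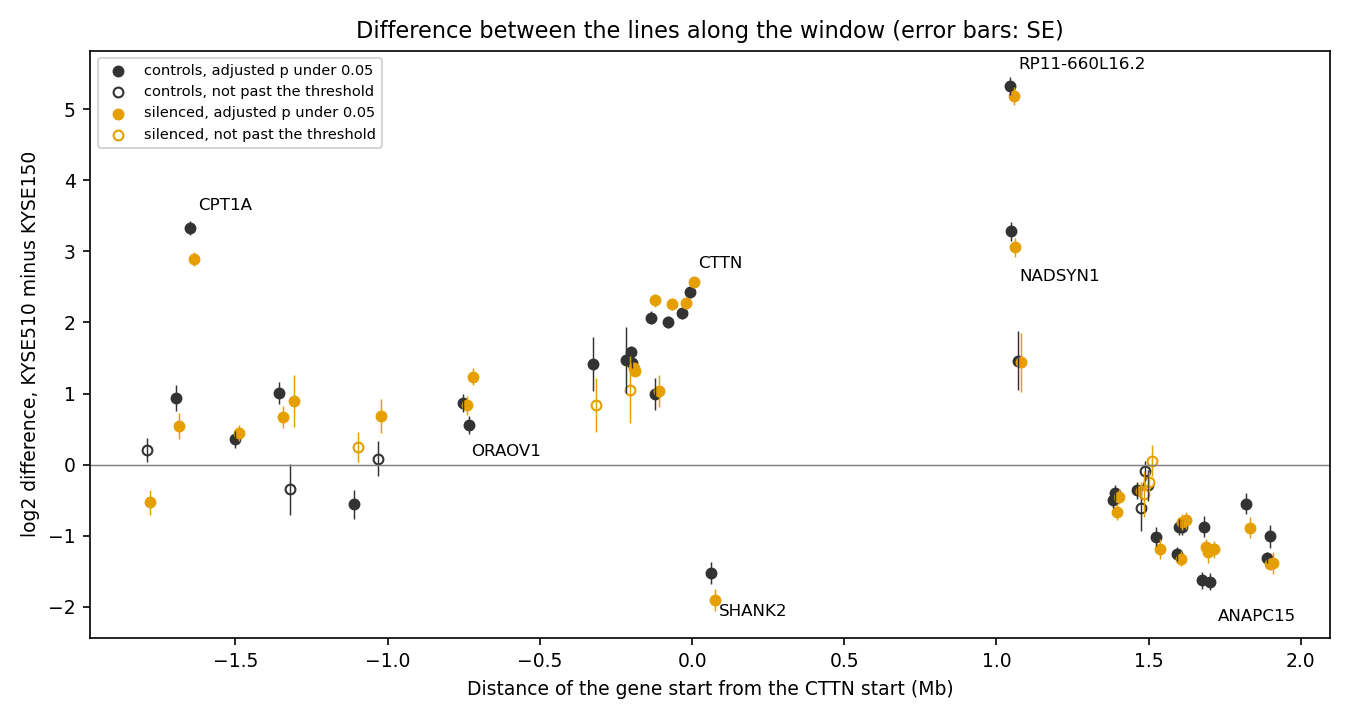
Log2 difference between the lines (KYSE510 minus KYSE150, vertical axis, bars are SE) against the distance of each gene start from the CTTN start in Mb, for the 39 tested members; dark points compare control libraries, orange points silenced libraries, and open points did not pass the threshold. CTTN stands at 2.42, SHANK2 just beyond it at -1.52, and NADSYN1 and RP11-660L16.2 at 3.28 and 5.32. MIR6754 lies just right of NADSYN1 at 1.46, and the cluster from FAM86C1 on lies below 0 except 1 open orange point.

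The genes of this distal stretch that were lower in KYSE510 encode proteins of several kinds. ANAPC15, a subunit of the anaphase-promoting complex, was at 89.3, 94.7 and 80.5 RPKM in KYSE150 controls and 30.7, 26.8 and 26.0 in KYSE510 controls. Its log2 difference was -1.65 ± 0.12 (SE; adjusted p = 3.19e-07 by limma). LRTOMT, whose row shares 780 exon bases with ANAPC15 on the other strand, differed by -1.63 ± 0.12. The shared bases are 12.7% of LRTOMT and 27.1% of ANAPC15, and reads on them cannot be told apart without strand.

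CLPB, a mitochondrial protein disaggregase, was at 11.5, 11.8 and 11.6 RPKM in KYSE150 controls and 4.25, 4.85 and 4.12 in KYSE510 controls, a log2 difference of -1.31 ± 0.07 (SE). NUMA1, which organizes the mitotic spindle poles, was at 52.7 ± 7.02 RPKM in KYSE150 and 28.3 ± 2.76 in KYSE510 controls (SD, n = 3 each), a log2 difference of -0.88 ± 0.11. IL18BP, which neutralizes interleukin-18, RNF121, a ubiquitin ligase gene, and LAMTOR1, an anchor of the Ragulator complex on lysosomes, differed by -1.26 ± 0.10, -1.01 ± 0.14 and -0.88 ± 0.15. INPPL1, an inositol phosphatase gene, differed by -0.55 ± 0.15, and AP000593.7, which overlaps CLPB by 59 exon bases, by -1.01 ± 0.16. All these differences passed limma's test (the largest adjusted p was 0.00633, for INPPL1).

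At each edge of the window, the outermost tested member was close to the nearest tested genes outside in control libraries. The first tested member, CTD-2007L18.5, differed by 0.21 ± 0.17 on the log2 scale. LRP5 and PPP6R3, which start just before the window, differed by -0.0037 ± 0.14 and -0.16 ± 0.07. CTD-2007L18.5 shares 17% of its exon bases with PPP6R3, and among silenced libraries it differed by -0.53 ± 0.17. The next tested members inside, TESMIN and CPT1A, stood apart from these, at 0.94 ± 0.18 and 3.33 ± 0.10 in controls. The last tested member, AP000593.7, differed by -1.01 ± 0.16, and ARAP1 and ARAP1-AS1 just beyond it by -0.82 ± 0.11 and -0.97 ± 0.15.

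The promoters of 5 members are shown because these genes span a wide range of the log2 difference between control lines. They are the largest rise with an entry on the log2 scale (CPT1A), the genes around CTTN (ANO1, FADD and PPFIA1) and the largest fall on that scale (ANAPC15). By the ratio of mean RPKM, SHANK2, which has no entry, fell further than ANAPC15, and NADSYN1 rose further than CPT1A. Each is the 250 bases before the start site of RefSeq on GRCh38.p14, read 5′ to 3′ on the strand of the gene, and capitals mark the GC box GGGCGG, a word bound by SP1, on either strand. CPT1A lies at chr11:68844278-68844527 on the minus strand, ANO1 at chr11:69985657-69985906, FADD at chr11:70203046-70203295 and PPFIA1 at chr11:70270440-70270689 on the plus strand, and ANAPC15 at chr11:72112696-72112945 on the minus strand. The ANO1 site lies 92395 bases before the start of the deposited ANO1 row, so it belongs to a longer transcript than that row begins with.
CPT1A: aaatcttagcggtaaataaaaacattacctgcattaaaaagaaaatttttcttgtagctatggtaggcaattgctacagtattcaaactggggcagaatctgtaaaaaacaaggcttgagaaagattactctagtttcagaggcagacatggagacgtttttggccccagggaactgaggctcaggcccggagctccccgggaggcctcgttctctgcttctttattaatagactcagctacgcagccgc
ANO1: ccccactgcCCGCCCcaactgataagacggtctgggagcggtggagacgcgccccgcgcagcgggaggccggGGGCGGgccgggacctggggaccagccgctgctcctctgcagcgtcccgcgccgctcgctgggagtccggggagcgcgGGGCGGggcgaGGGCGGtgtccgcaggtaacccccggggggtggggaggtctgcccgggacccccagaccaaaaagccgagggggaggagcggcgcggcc
FADD: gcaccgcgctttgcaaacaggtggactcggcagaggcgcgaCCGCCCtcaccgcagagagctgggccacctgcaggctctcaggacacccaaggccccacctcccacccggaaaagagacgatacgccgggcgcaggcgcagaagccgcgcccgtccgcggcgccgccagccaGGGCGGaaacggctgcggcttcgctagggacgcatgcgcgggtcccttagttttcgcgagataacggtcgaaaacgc
PPFIA1: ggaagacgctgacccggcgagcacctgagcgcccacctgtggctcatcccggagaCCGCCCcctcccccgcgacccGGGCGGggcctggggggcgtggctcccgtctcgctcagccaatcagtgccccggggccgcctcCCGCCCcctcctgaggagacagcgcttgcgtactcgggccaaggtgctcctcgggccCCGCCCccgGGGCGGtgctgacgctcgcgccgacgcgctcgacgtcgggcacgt
ANAPC15: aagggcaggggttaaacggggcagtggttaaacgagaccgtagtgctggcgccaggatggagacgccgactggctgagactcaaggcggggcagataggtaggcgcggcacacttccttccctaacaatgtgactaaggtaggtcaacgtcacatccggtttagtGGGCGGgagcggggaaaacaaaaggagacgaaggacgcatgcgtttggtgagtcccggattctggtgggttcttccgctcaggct
No GC box is in the CPT1A window, whereas ANO1 has 4, FADD 2, PPFIA1 5 and ANAPC15 1. Over windows of 250 bases before to 50 after the start, RefSeq gave 20 members, and 14 of them (70%) held a GC box, against 44.59% of all 27305 promoters of the table. The share was 6 of 7 members higher in KYSE510 controls and 6 of 8 lower, so the word was in most members of both directions. The E-box CACGTG, the word bound by MYC with MAX, was in 1 of the 20 (LAMTOR1) against 7.435% of all promoters, and TATAAA was in 1 against 11.95%. A word of these letters is a description and not a bound site.

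For most members the line difference was much the same among the silenced libraries, which share no library with the controls. Again 33 of 39 members were called by limma, 18 higher in KYSE510 and 15 lower, against 64.1% of all genes tested, 24.2% higher and 39.8% lower. The 30 members called in both comparisons, 90.91% of the calls of each, had the same direction in both. Another 3 were called in controls only and 3 in silenced libraries only. This overlap was not counted over all genes tested, so whether 30 members is unusual cannot be told. From controls to silenced libraries the sign turned for CTD-2007L18.5 (0.21 to -0.53, called lower) and MYEOV (-0.56, called, to 0.25). It also turned for MIR3164 (-0.35 to 0.90, called higher on 3 reads against 0) and OR7E126P (-0.29 to 0.06, not called). The CTD-2007L18.5 call was lost without KYSE150 silenced replicate 3 (adjusted p = 0.0622 by limma) or KYSE510 silenced replicate 1 (adjusted p = 0.0784). That of MIR3164 (adjusted p = 0.0492 by limma) was lost in several alternatives, among them no expression filter (adjusted p = 0.0922). With libraries centred on their median the split of all calls changed from 4319 higher and 7097 lower to 5656 higher and 5461 lower, and that of the members from 18 and 15 to 20 and 14. The median over all genes tested was -0.19 and over the members 0.45, and 31 of the 39 members did not overlap between lines, against 69.7% of all genes tested. CTTN differed by 2.57 ± 0.08, PPFIA1 by 2.31 ± 0.09, FADD by 1.35 ± 0.08 and CPT1A by 2.90 ± 0.10 on the log2 scale (SE). ANO1 was at 0.480, 0.224 and 0.431 RPKM in KYSE150 and 1.03, 0.440 and 2.13 in KYSE510. The lines overlapped, and the log2 difference of 0.84 ± 0.38 did not pass (adjusted p = 0.0736 by limma). It passed with libraries centred on their median (1.025, adjusted p = 0.0318), without KYSE510 silenced replicate 2 (1.20, adjusted p = 0.0161) and without KYSE510 control replicate 2 (0.84, adjusted p = 0.0457).

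A larger share of members was higher in KYSE510 than in most other windows of chromosome 11. In the neighbouring 4 Mb before it, 38 of 143 tested genes were higher in KYSE510 controls and 31 lower, with a median log2 difference of -0.02. In the 4 Mb after it, 8 of 51 were higher and 28 lower, with a median of -0.51. Along the chromosome, 24 other windows of 4 Mb had at least 10 tested genes, and the share called higher was above the members' 46.2% in 1 of them (52.9%). Their median share called higher was 19.5%. The share called in either direction was above the members' 84.6% in 3 of the 24. A log2 difference of at least 2 in either direction was found in 7 of 39 members (17.9%) and in 940 of 17823 genes tested (5.27%), and 1 of the 24 windows had a larger share (21.1%). These shares are descriptions, since neighbouring genes are not independent and the members were chosen by position.

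**Figure D3:**
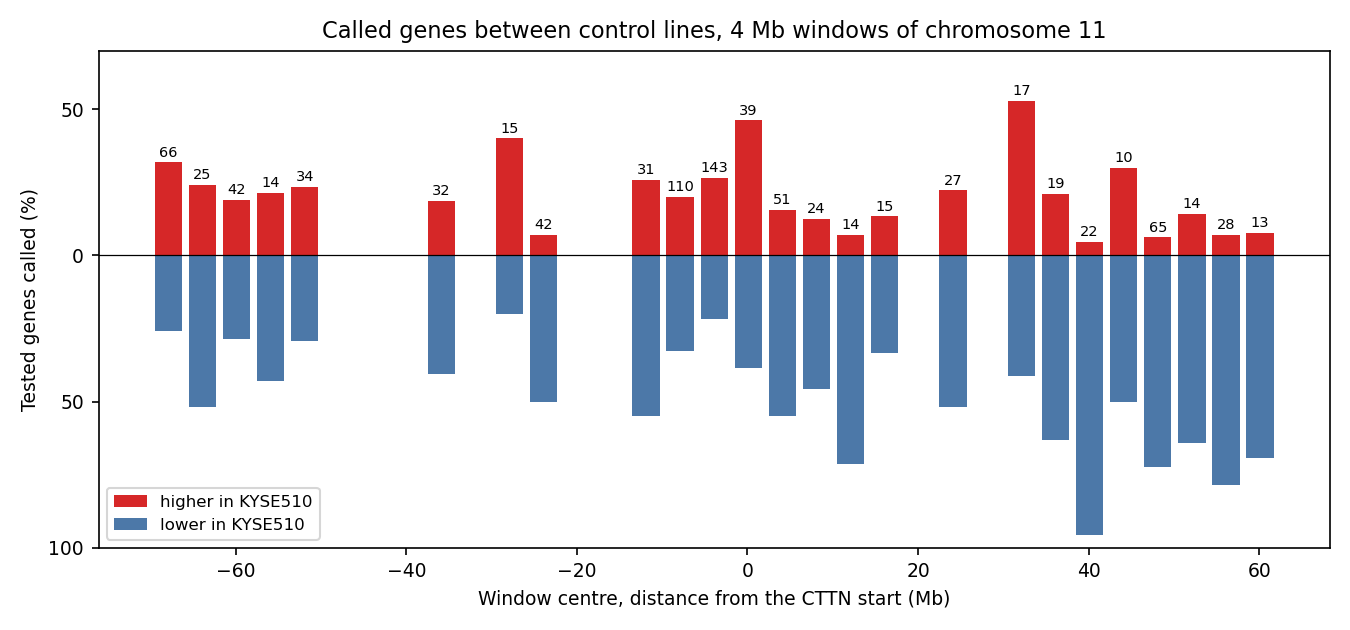
Percent of tested genes called higher (red, upward) and lower (blue, downward) in KYSE510 than in KYSE150 controls, in windows of 4 Mb along chromosome 11 against the distance of the window centre from the CTTN start; numbers give the genes tested, and windows with fewer than 10 are not drawn. The member window near 0 has 46.2% higher and 38.5% lower, and the window after it 15.7% higher and 54.9% lower.

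Genes that work with the members but lie elsewhere differed between the control lines in both directions, about as often as genes in general. Over 5 lists of such genes, 14 of 42 tested were called higher in KYSE510 and 12 lower, 61.9% in all, against 62% of all genes tested. Of 21 genes of cortactin and Arp2/3 actin branching, 17 were tested and 10 called (58.8%), 6 higher in KYSE510 and 4 lower. Among them, WASF2, an activator of the Arp2/3 complex, differed by 0.82 ± 0.07 on the log2 scale (SE) and ARPC1B, a subunit of it, by 0.67 ± 0.15, whereas ARPC3 differed by -0.78 ± 0.06 and CTTNBP2NL by -1.33 ± 0.10. The median over this list was 0.23. CTTN, at 2.42, thus differed by more than any tested gene of its list.

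Of 8 partners of FADD at death receptors, 5 were called (62.5%), 3 higher and 2 lower. CASP8, the caspase that FADD recruits, was at 1.81 RPKM in KYSE150 and 5.999 in KYSE510 controls, a log2 difference of 1.496 ± 0.08 (SE). CFLAR, which restrains it, differed by 0.82 ± 0.10 and CASP10 by 0.49 ± 0.17, whereas the receptor TNFRSF10A differed by -0.95 ± 0.21 and FAS by -0.42 ± 0.14. Without KYSE510 control replicate 3, 3 of the 8 were called.

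Of the other anoctamins, 5 of 8 in the table were tested and 2 called, both lower in KYSE510: ANO6 by -1.002 ± 0.12 and ANO2 by -1.73 ± 0.23. Among liprins and partners of PPFIA1, 7 of 10 were tested, with the receptor phosphatase PTPRS (1.85 ± 0.14) and KANK1 (1.71 ± 0.09) higher and PPFIBP1 (-1.27 ± 0.13) and PPFIBP2 (-0.49 ± 0.14) lower. All 5 tested receptors and adaptors of the FGF ligands encoded in this region were called: FGFR4 (2.003 ± 0.14), FGFR3 (1.65 ± 0.19) and FGFR1 (0.93 ± 0.21) were higher in KYSE510, and FGFR2 (-1.60 ± 0.12) and FRS2 (-0.62 ± 0.11) lower. KLB, the co-receptor used by FGF19, was not tested. The medians of the 3 lists were -0.08, 0.00 and 0.93 against -0.07 over all genes tested.

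After HCP5 silencing no member passed the threshold in either line. In KYSE150, 0 of 39 members were called by limma, against 0.499% of all genes tested, and in KYSE510 0 of 39 against 0.0393%. For the mean change over both lines it was 0 against 0.539%, and for the difference of the change between the lines 0 against 0% of all genes. At an unadjusted p under 0.05 were 8 members in KYSE150 (20.5%, against 18.1% of all genes tested), 2 in KYSE510 (5.13% against 6.35%), 4 for the mean (10.3% against 11.5%) and 7 for the difference (17.9% against 12.2%). The median log2 change of the members was 0.02 in each line, against 0.08 over all genes tested in KYSE150 and -0.02 in KYSE510.

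**Figure D4:**
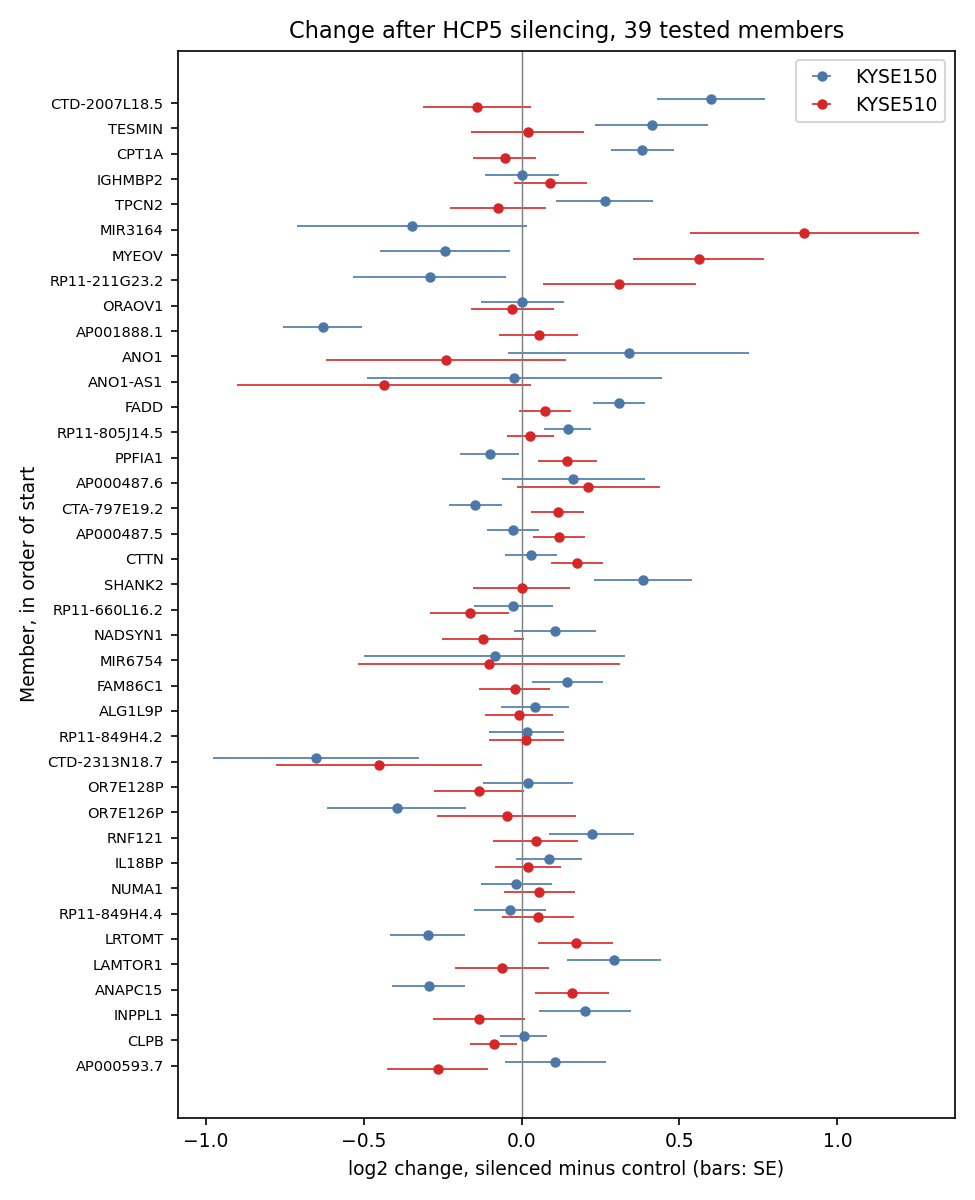
Log2 change after HCP5 silencing (silenced minus control, horizontal axis, bars are SE) for the 39 tested members in order of position, with KYSE150 in blue and KYSE510 in red. Most points lie within 0.4 of 0, and those of ANO1-AS1, MIR6754 and ANO1 have the widest error bars.

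CTTN stayed close to its control level after silencing. Its silenced libraries were at 114, 105 and 117 RPKM in KYSE150 and at 685, 624 and 687 RPKM in KYSE510. In both lines these values overlapped the controls. The log2 change was 0.03 ± 0.08 (SE; adjusted p = 0.885 by limma) in KYSE150, where centring of libraries turned it to -0.10, and 0.18 ± 0.08 (adjusted p = 0.806) in KYSE510. PPFIA1 changed by -0.10 ± 0.09 and 0.14 ± 0.09 (adjusted p = 0.591 and 0.909).

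FADD, CPT1A and AP001888.1 came closest to the threshold in KYSE150. FADD was at 40.8, 42.2 and 44.1 RPKM in silenced libraries, all above its 3 controls, a log2 change of 0.31 ± 0.08 (SE; adjusted p = 0.112 by limma). CPT1A was at 3.52, 4.18 and 3.81 RPKM, also above every control, a change of 0.38 ± 0.10 (adjusted p = 0.109). AP001888.1, the short row within ORAOV1, was at 17.8, 18.6 and 19.9 RPKM in controls and 10.9, 11.8 and 13.2 in silenced libraries, a change of -0.63 ± 0.12 (adjusted p = 0.0587). ORAOV1 itself changed by 0.00 ± 0.13.

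With same-numbered libraries of a line paired, 4 of the 39 members passed in KYSE150, against 6.7% of all genes tested. They were FADD (adjusted p = 0.0479), CPT1A (adjusted p = 0.0416), AP001888.1 (adjusted p = 0.0377) and CTD-2007L18.5, a lincRNA named after its values were seen (log2 0.60, adjusted p = 0.0286, and 0.130 without pairing, by limma). AP001888.1 rested on 12 to 19 reads in each KYSE150 library. Without pairing, 5 members passed when KYSE150 control replicate 3 was left out and 1 when KYSE510 silenced replicate 1 was. Over all 17823 genes tested, these fits called 1287 and 53, against 89 with every library. The silenced libraries of KYSE150 all held more reads than its controls, and the part of depth in these values was not tested. The summed RPKM of the squamous markers ran from 668 to 1295 in KYSE150 controls and from 985 to 2374 in silenced libraries. In KYSE510 this sum ran from 901 to 1470 in controls and from 1096 to 2276 in silenced libraries. The part of these markers in the values of the members was not tested. In KYSE510 the 4 members named here changed by 0.07 ± 0.08 (FADD), -0.05 ± 0.10 (CPT1A), 0.05 ± 0.12 (AP001888.1) and -0.14 ± 0.17 (CTD-2007L18.5), and 0 members passed with pairing.

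**Figure D5:**
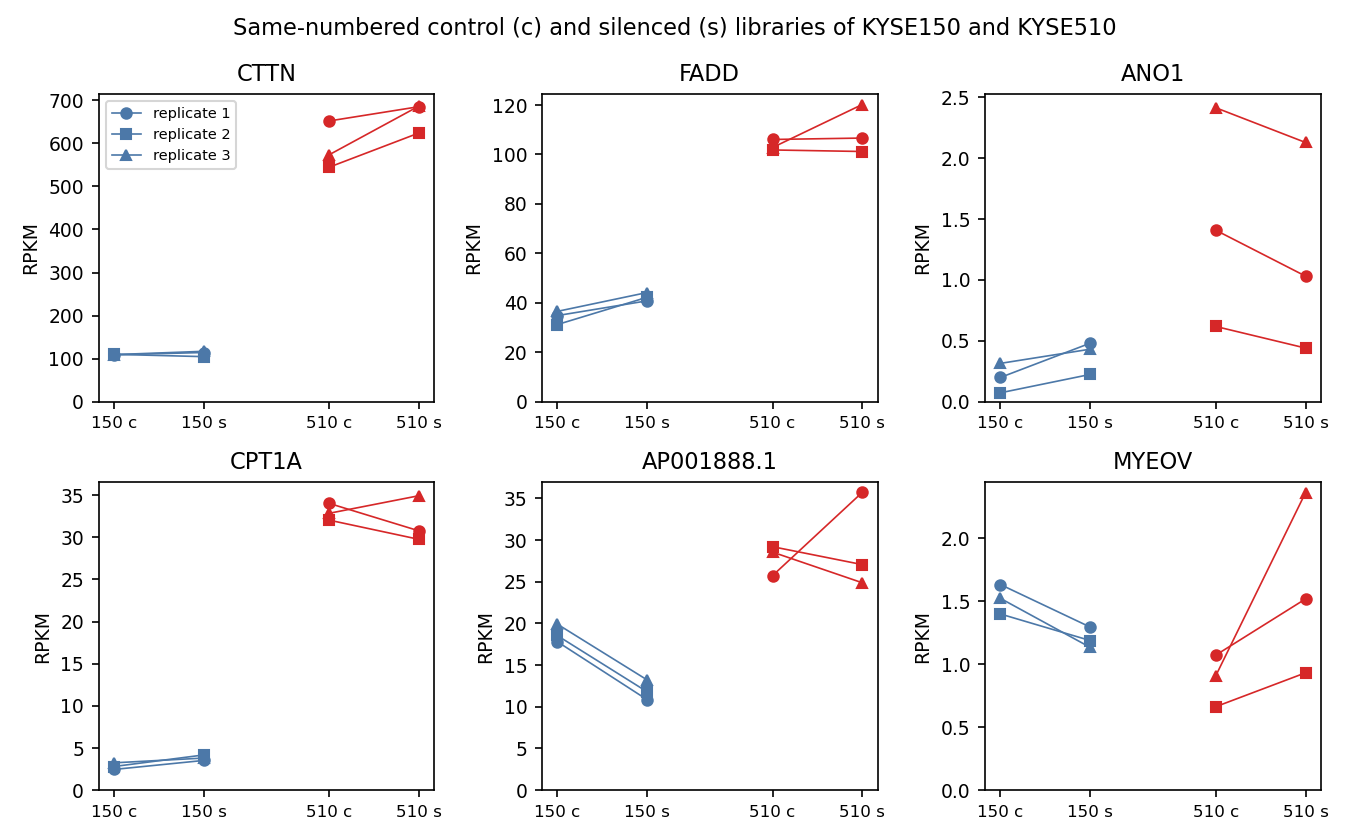
RPKM of 6 members in control (c) and silenced (s) libraries of KYSE150 (blue) and KYSE510 (red), with lines joining libraries of the same replicate number and marker shapes giving the number. FADD and CPT1A are higher and AP001888.1 is lower in the silenced library of all 3 KYSE150 pairs, while ANO1 is higher in the 3 KYSE150 pairs and lower in the 3 KYSE510 pairs.

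ANO1 and MYEOV had changes of opposite sign in the lines, within wide spreads, and neither passed. ANO1 was at 0.480, 0.224 and 0.431 RPKM in silenced KYSE150 libraries and at 1.03, 0.440 and 2.13 in silenced KYSE510 libraries. The log2 changes were 0.34 ± 0.38 in KYSE150 and -0.24 ± 0.38 in KYSE510 (SE; adjusted p = 0.662 and 0.969 by limma). MYEOV was at 1.30, 1.19 and 1.13 RPKM in silenced KYSE150 libraries, all below the controls, and at 1.52, 0.932 and 2.36 in KYSE510, where the groups overlapped. Its changes were -0.24 ± 0.21 and 0.56 ± 0.21 (adjusted p = 0.549 and 0.638 by limma), the latter with the smallest p among the members that were higher in KYSE510 after silencing. The smallest in the other direction there was that of AP000593.7, at -0.27 ± 0.16 (adjusted p = 0.893).

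The partner lists gave the same picture after silencing. In each of the 5 lists 0 genes were called in KYSE150 and 0 in KYSE510 by limma, with 8 and 2 of their 42 tested genes (19.05% and 4.76%) at an unadjusted p under 0.05, against 18.1% and 6.35% of all genes tested. The windows on either side of the region had 1 of 143 and 0 of 51 genes called in KYSE150 and 0 in KYSE510.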

How the data were processed

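The deposited table gives RPKM for 12 libraries (4 groups of 3), with exon positions and summed exon length per gene. Per the submitters' processing notes, the tools named are HISAT2 and DESeq and the build GRCh38, with no versions. Whether strand was used in counting is not given in the sources used here. Multiplied by length, the authors' RPKM were whole multiples of 1 step per library for 100% of values (within 0.01), so reads were recovered, 20035025 to 28202422 per library. Intervals on reads cover counting error only.

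Values were used as deposited. limma 3.58.1 in R 4.3.3 was fitted to log2(RPKM + 0.5) of all 12 libraries with 4 group means, a variance trend and 8 residual degrees of freedom, for 17823 genes with at least 0.5 RPKM in at least 3 libraries. Two-sided p-values were adjusted over all of these (Benjamini-Hochberg), with a threshold of 0.05. A difference on this scale understates that of low genes. The limma script was tested on simulated data. Alternatives were other pseudocounts (0.1 and 1), filters and scalings, a fit without trend or with the 2 groups alone, a replicate block and leaving out each library.

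Replicate numbers come from the titles. Deviations from group means correlated at 0.147 to 0.415 between same-numbered control and silenced libraries of a line (6 pairs) and at -0.385 to 0.184 otherwise, so the numbers were taken to pair libraries within a line. Between control lines same-numbered libraries correlated at 0.043 to 0.224 and the others at -0.251 to 0.145. Same-numbered silenced KYSE150 and control KYSE510 libraries correlated at 0.149 to 0.315. No pairing was used between lines, so any spread shared by replicate number over the lines was not modelled there. Between replicates the chi-square of reads was 11.3 to 40.4 for each gene on average, so all were kept as separate samples.

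Named genes are well-known members, up to 8 members with the largest differences in each direction between control lines, and those with the smallest p in each silencing comparison. The members and lists were chosen with earlier results of these data known. The comparison among silenced libraries was added after seeing the data. GENCODE release 29 (53 members matched by name, 34 by position) gave gene types, and RefSeq promoters on GRCh38.p14 matched 20 members.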

Additional observations from a re-analysis of the deposited data

Results flagged for a closer look

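Of the 39 tested members, 4 were higher after silencing in all 3 same-numbered pairs of a line and lower in all 3 pairs of the other line. The share of all genes tested that did so was not counted, so whether 4 of 39 is unusual cannot be told. The difference of the log2 change after silencing, KYSE510 minus KYSE150, was -0.5779 for ANO1, 0.8032 for MYEOV, -0.7412 for CTD-2007L18.5 and -0.226 for NADSYN1. The test of that difference by limma gave adjusted p = 0.614, 0.394, 0.394 and 0.569, and 0.117, 0.121, 0.109 and 0.180 with the replicate block, so none of the 4 passed. ANO1 levels were below 2.5 RPKM in every library, and within each of the 4 groups replicate 2 was lowest.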

How the results depend on the processing

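The number of members called between control lines stayed within 1.5 times its value of 33 in every alternative run, from 29 to 33 when 1 library was left out, with the same range among silenced libraries. Of 520 differences between control lines for the 26 named members in alternatives, 0 reversed. Of these 26, 25 were called in the main fit, and many were named for a large difference. The sign changed for 2 of the 39 tested members, neither of them called. They were OR7E128P (0.022 without KYSE510 control replicate 3) and RP11-211G23.2 (-0.060 with quantile normalization). Over all 39 tested members the call changed in at least 1 alternative for 5: IGHMBP2, MYEOV, ANO1-AS1, CTD-2313N18.7 (gained without KYSE150 control replicate 1) and RP11-849H4.2, lost with median centring (-0.33, adjusted p = 0.0600 by limma) and without replicate 2 of either control group. After silencing in KYSE150, 0 called members became 1 with median centring, 1 with quantile normalization, 4 with the replicate block and 0 to 5 when 1 library was left out; the cause was not tested. In KYSE510, for the mean and for the difference, 0 stayed 0, also with the replicate block. Values within their error changed sign: CTTN in KYSE150 was -0.0985 with centring and -0.0014 to 0.0787 leaving out 1 library, and AP000593.7 there was -0.0229 with centring, -0.0171 with quantile normalization and -0.0043 to 0.2559. ANO1 in KYSE510 ran from -0.6156 to 0.126 and AP001888.1 there from -0.0972 to 0.1594. With the replicate block 1 gene of each of the 5 partner lists passed in KYSE150, against 0 without. FADD partners called between lines ran from 3 to 5 leaving out 1 library.

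Over all genes, 89 calls in KYSE150 (67 higher, 22 lower) became 1194 with the replicate block, 154 with quantile normalization (77 and 77), 116 with centring (54 and 62), 7 with the 2 groups alone and 15 (without KYSE150 silenced replicate 3) to 1287 (without KYSE150 control replicate 3) leaving out 1 library. In KYSE510, 7 became 3 with a pseudocount of 0.1, 0 with the 2 groups alone, 44 without a filter, 11 with quantile normalization, 20 with the block and 2 to 7 leaving out 1 library. The mean went from 96 to 488 with the block and 43 to 140 leaving out 1 library, and the difference from 0 to 10 without a filter and 0 to 4. Count models on the recovered reads, planned as alternatives, were fitted but not kept, because the deposited values are RPKM, and some calls differed under them, that of AP001888.1 between control lines among them. Depth limits the short, low rows: 3 reads on 1 kb of exon are 0.106 to 0.150 RPKM.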

Other observations

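Among members that were not tested, several low rows were read mostly in KYSE510 when control libraries were compared. RP11-684B2.3 averaged 0.695 RPKM in KYSE510 controls and had no read in KYSE150 controls, with at most 7 reads in a library. CTA-797E19.1 averaged 0.371 RPKM in KYSE510 controls with no read in KYSE150 controls and at most 5 reads. Among silenced libraries it had 8 reads in KYSE510 and 5 in KYSE150. That ratio per assigned read was 1.86 (exact 95% interval 0.537 to 7.23, for counting error only). AP001271.3 was an exception, at 0.240 RPKM in KYSE150 controls and 0.0588 in KYSE510 controls, with at most 4 reads. FOLR1 had 4 reads in the KYSE150 controls together and 37 in the KYSE510 controls, a ratio per assigned read of 7.62 (exact 95% interval 2.74 to 29.4, for counting error only). These rows were picked after their values were seen, and the counts are too low for a test here.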
